A study of Mus musculus with 24 samples.

Results

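Sorted supporting cells of the XX and the XY mouse gonad were compared at E11.5 (days of embryonic development), the first of the stages sampled and the point at which the lineages begin to part. The comparison holds 6 of the 24 libraries of the series, chosen by sex and stage from their labels: 3 libraries labelled pre-granulosa cells, from XX embryos of the Tg(Enh8-mCherry) line, and 3 labelled Sertoli cells, from XY embryos of the SOX9-IRES-GFP line. No other allele, treatment or agent is given for either group, and the cell type or element that drives the mCherry transgene is not described in the labels. In the SOX9-IRES-GFP line the GFP is made from the Sox9 transcript, so the XY gate was itself a gate on Sox9. Sex, mouse line and fluorophore changed together and cannot be told apart, and each difference below is between the 2 kinds of sorted library. Each library came from about 40000 sorted cells, and nothing states whether replicates came from separate litters or pools, so p-values measure the spread between these samples, which may be technical.

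Supporting cells are the somatic cells that surround the germ cells, and their fate decides the fate of the gonad. In XY gonads a short pulse of Sry switches on Sox9, which with Fgf9 drives Sertoli differentiation, while in XX gonads WNT signalling through Rspo1 and Wnt4, together with Runx1 and Foxl2, drives the pre-granulosa fate. Each side restrains the other, with FGF9 acting against WNT4 and stabilised beta-catenin acting against SOX9.

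Total counts were 14694972 to 20689271 in the XX libraries and 35392449 to 37256871 in the XY libraries. The mean Spearman correlation was 0.958 between XX libraries, 0.966 between XY libraries and 0.946 between an XX and an XY library. The first principal component held 64.9% of the variance and the second, on which XX replicate 2 stood apart, 17.9%. The Y-linked genes matched the labels: Ddx3y, an RNA helicase gene, was at 0.563, 0.145 and 0 CPM in XX against 186, 127 and 139 in XY, and Uty, Kdm5d and Eif2s3y were likewise higher in all 3 XY libraries. Xist, the RNA that coats the inactive X chromosome, was at 114.6, 75.1 and 96.05 CPM (counts scaled to library size) in XX and at 0.286, 6.61 and 43.8 CPM in XY, so XY replicate 3 carried a level nearer to XX than its fellows did. Throughout, the 3 values of a group are those of replicates 1, 2 and 3, and log2 differences are XX minus XY, so a positive value is higher in XX. Each log2 difference is given ± its SE from the fit of 3 against 3 libraries.

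Of 15395 genes tested, 1403 were called higher in XX (9.11%) and 1315 higher in XY (8.54%), 2718 in all (17.7%), at an adjusted p under 0.05 in edgeR's quasi-likelihood test with Benjamini-Hochberg adjustment. The median log2 difference of all genes was 0.0019. The XX libraries did not overlap the XY libraries for 6347 genes (41.2%). With the spread estimated from all 24 libraries, 6803 genes (42%) were called, and with limma-trend on log2(TPM + 1) the 2511 calls split into 1002 higher in XX and 1509 higher in XY. The count fell to 1010, 1110 and 1448 without XY replicate 1, 2 or 3, and 896 of the 2718 calls (33.0%) held in each of the 6 fits that left out 1 library. Calls described below as held are of this kind.

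The XX libraries also carried RNA of blood. The erythroid marker list summed to 14589, 4745 and 36284 CPM in XX against 89.7, 96.00 and 92.9 in XY, so XX replicate 3 was highest and XX replicate 2 lowest of the XX libraries. Of its 17 tested members 15 were called higher in XX, against 9.11% of all genes. The macrophage and immune list summed to 507, 262 and 789 CPM in XX against 4.52, 4.24 and 8.08 in XY, in the same order, and all 18 members were higher in XX. The embryonic globin gene Hba-x was at 5449.5, 999 and 12316 CPM in XX against 2.69, 9.15 and 5.92 in XY, and Ctss, a protease gene of macrophages, at 21.9, 11.9 and 34.2 CPM in XX against 0, 0 and 0.0280 in XY. All 18 immune markers had more than 3 counts in each XX library, against 7, 4 and 13 of them in XY replicates 1, 2 and 3. In bulk samples, fewer cells of a type and less RNA per cell cannot be told apart. With the genes of both lists removed before scaling, 2690 of 15360 genes were called. Other genes of blood, Kel, Rhd and Tal1 among them, stayed in that fit, so the count does not measure the part of blood RNA.

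The germ cell list summed to 76.8, 57.9 and 105 CPM in XX against 73.9, 90.01 and 93.8 in XY. In edgeR 0 of its 11 tested members were called, against 17.7% of all genes. At an unadjusted p under 0.05 there were 2, and DESeq2 called 2. The endothelial list summed to 54.6, 76.7 and 99.4 CPM in XX against 51.97, 62.97 and 68.2 in XY and the interstitial list to 1318, 689.6 and 4292 CPM in XX against 1589, 1941 and 2682 in XY, with groups that overlapped in both. Pecam1, an adhesion gene of endothelial and blood cells, was the only called endothelial gene, at 8.61, 8.14 and 8.39 CPM in XX against 1.83, 1.48 and 1.54 in XY (log2 difference 2.37 ± 0.25, adjusted p 0.00181). The mesonephric list summed to 644, 615 and 453 CPM in XX against 322, 286 and 297 in XY, where the groups did not overlap. That separation rests on Emx2, also a gene of the coelomic epithelium, at 203, 263 and 253 CPM in XX against 75.6, 81.8 and 60.6 in XY. In the interstitial list Maf was among the genes higher in XX, and Pdgfra and Ptch1 were higher in XY. In the mesonephric list Pax8, Emx2 and Ret were higher in XX and Cdh16 and Wnt9b in XY. Of these 8 genes the calls of Maf and Emx2 held, and those of Pax8 and Wnt9b were lost with the replicate block (adjusted p 0.0732 and 0.0548). Without XX replicate 3, 9 interstitial genes were called higher in XY, and without XX replicate 1, 5 mesonephric genes. The part of these marker lists in the differences below was not tested.

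**Figure D1:**
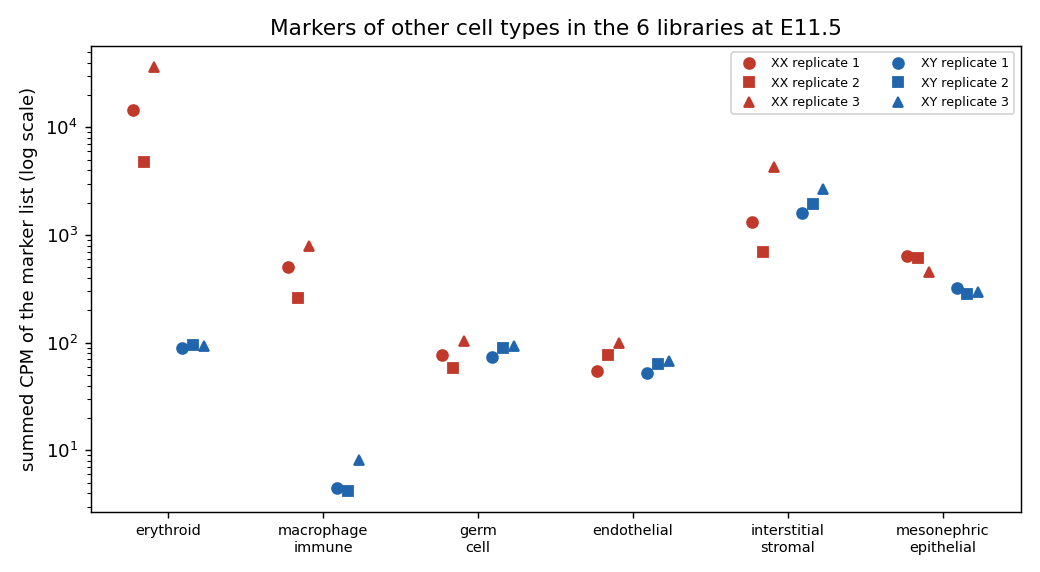
Summed CPM (log axis) of 6 marker lists in each library at E11.5, with XX libraries in red and XY libraries in blue and 1 symbol per replicate. The erythroid and the macrophage and immune lists are far higher in all 3 XX libraries, with XX replicate 2 the lowest of the XX libraries.

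The labelled identities were checked against the 4 defining markers. Sox9, the central transcription factor of Sertoli cells, was at 238, 83.02 and 77.8 CPM in XX against 1879, 2224 and 1297 in XY (log2 difference -3.76 ± 0.49, adjusted p 0.00368), and since the XY gate rests on it, this difference is part of the sort. Fgf9, the growth factor that maintains Sox9, was at 2.03, 2.33 and 1.56 CPM in XX against 103, 104 and 75.9 in XY (log2 difference -5.57 ± 0.23, adjusted p 0.000113). The 3 XY libraries lay far above the 3 XX libraries for both genes, and the Sox9 of XX replicate 1 was the highest of the XX group. Fst, which encodes the activin antagonist follistatin, was at 143, 506 and 113 CPM in XX against 4.04, 3.27 and 6.48 in XY (log2 difference 5.79 ± 0.69, adjusted p 0.0026). Lhx9, a LIM-homeobox gene of the early gonad, was at 249.5, 216 and 211 CPM in XX against 73.9, 51.1 and 98.9 in XY (log2 difference 1.60 ± 0.24, adjusted p 0.00576). XX lay above XY in every library for both, but the Fst of XX replicate 2 was several times that of the other XX libraries, and the log2 difference was 4.80 without XX replicate 2 for Fst and -4.49 without XX replicate 1 for Sox9. All 4 calls held.

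**Figure D2:**
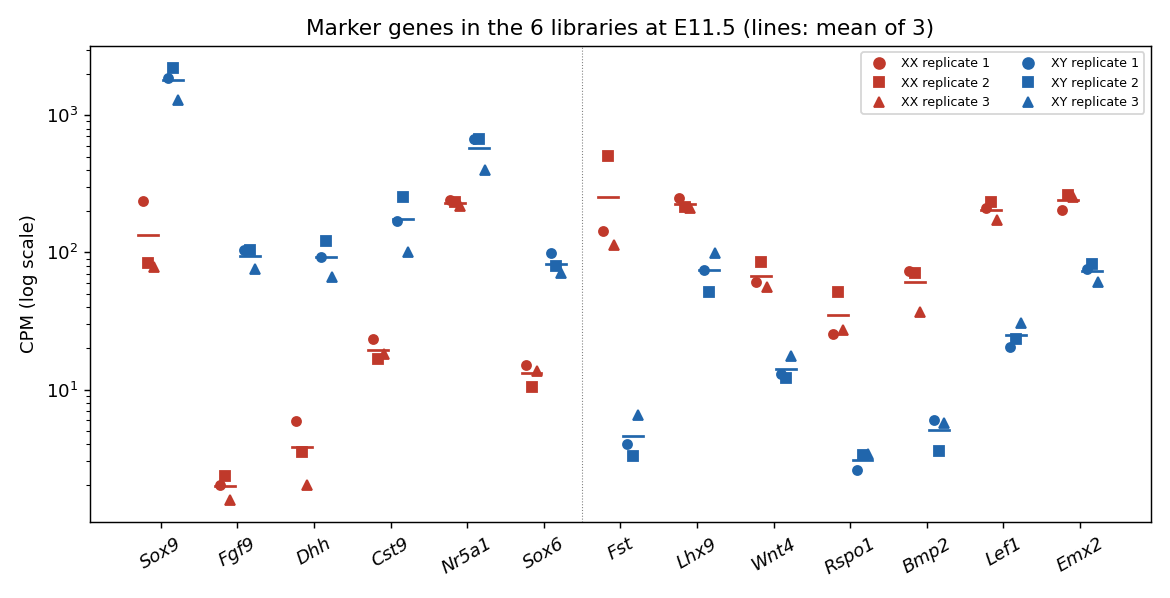
CPM (log axis) of 13 marker and regulator genes in the 6 libraries, XX in red and XY in blue, with 1 symbol per replicate and a line at the mean of 3. The 6 genes left of the dotted line are higher in every XY library and the 7 genes right of it are higher in every XX library.

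Most genes of the Sertoli list were higher in XY at E11.5. Of 19 tested genes of the list, 12 were called higher in XY and 1 higher in XX (68.4%, against 17.7% of all genes). All 13 calls held. This list and those below were chosen with earlier results of these data known, so their shares are not independent support. Among the 12 were Sox9 of the sort and Sry, which is Y-linked. Dhh, the hedgehog ligand of Sertoli cells, was at 5.85, 3.49 and 2.03 CPM in XX against 93.1, 121 and 65.9 in XY (log2 difference -4.61 ± 0.42, adjusted p 0.00123), and Cst9, a cystatin gene, at 23.5, 16.8 and 18.2 CPM in XX against 171, 253 and 100.1 in XY (log2 difference -3.16 ± 0.35, adjusted p 0.00197). Sry, the switch itself, lies on the Y chromosome, so its absence from XX follows from sex and is not a Sertoli result. It had no count in any XX library and was at 9.68, 6.801 and 7.85 CPM in XY, at least 47.05-fold higher against a floor of 3 counts per library. Ptgds, which makes the prostaglandin D2 that reinforces Sox9, was at 1.52, 4.17 and 0.744 CPM in XX against 30.01, 34.2 and 18.3 in XY (log2 difference -3.65 ± 0.59, adjusted p 0.00753). In none of these genes did an XX library reach the XY range. Aard, Mro and Cbln4 were higher in XY as well, with log2 differences of -2.98, -2.96 and -3.72. The gene of the list higher in XX was Gata1, at 13.7, 5.96 and 31.05 CPM in XX against 0.172, 0.135 and 0.645 in XY (log2 difference 5.71 ± 0.85, adjusted p 0.00561). Gata1 is a transcription factor of both Sertoli and red blood cells and is also in the erythroid list, and its 3 XX values followed the order of the erythroid sum. With 1 library left out, the log2 difference was 4.93 without XX replicate 3 and 6.75 without XY replicate 3 for Gata1 and -4.58 without XX replicate 2 for Ptgds.

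Amh, the Sertoli hormone that removes the female ducts, was at 8.27, 2.62 and 0.338 CPM in XX against 24.7, 41.3 and 17.2 in XY and was not called (log2 difference -2.88 ± 0.86, adjusted p 0.0583), although with the replicate number as a block its adjusted p was 0.0329. Amh was lower in every XX library than in any XY library, but XX replicate 1 lay nearest. Over the alternatives its adjusted p ran from 4.56e-05 to 0.179. Dmrt1, a doublesex-family regulator of the testis, at 64.3, 31.7 and 58.6 CPM in XX against 76.2, 85.3 and 65.5 in XY (adjusted p 0.19), and Cyp26b1, which breaks down retinoic acid, at 38.7, 9.40 and 35.4 CPM in XX against 74.8, 91.6 and 57.5 in XY (adjusted p 0.082), also missed the threshold.

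Of 12 SOX family genes tested, 8 were called (66.7%, against 17.7% of all genes), all higher in XY, and all 8 calls held. The calls of Y-linked Sry and of Sox9, the gene of the XY gate, were set by sex and by the sort. Besides Sry and Sox9 these were the group E genes Sox8 and Sox10, the group D genes Sox5, Sox6 and Sox13, and Sox15. Sox6 was at 15.2, 10.4 and 13.7 CPM in XX against 98.6, 79.9 and 70.4 in XY (log2 difference -2.66 ± 0.21, adjusted p 0.000752) and Sox13 at 3.996, 3.59 and 4.73 CPM in XX against 20.3, 21.8 and 15.6 in XY (log2 difference -2.23 ± 0.23, adjusted p 0.00163). Sox5 was at 53.3, 39.9 and 48.1 CPM in XX against 138, 108 and 104 in XY (log2 difference -1.31 ± 0.17, adjusted p 0.00369). For each of these 3 group D genes the lowest XY library was above the highest XX library. Sox8 and Sox10, relatives that can act in place of Sox9, had log2 differences of -2.60 and -3.77, and Sox15 one of -3.29. For Sox10 the difference was -4.46 without XX replicate 3.

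The pre-granulosa list was higher in XX for 10 of its 19 tested genes and higher in XY for 1 (57.9%, against 17.7% of all genes). Its median log2 difference was 1.40. Wnt4, the ligand that opposes the male pathway, was at 61.1, 84.6 and 56.1 CPM in XX against 12.9, 12.2 and 17.5 in XY (log2 difference 2.24 ± 0.23, adjusted p 0.00156), and Rspo1, which amplifies WNT signals, at 25.3, 51.8 and 27.2 CPM in XX against 2.58, 3.32 and 3.36 in XY (log2 difference 3.49 ± 0.33, adjusted p 0.00136). Lef1, a nuclear effector and target of WNT signalling, was at 209.6, 232 and 173 CPM in XX against 20.6, 23.2 and 30.8 in XY (log2 difference 3.04 ± 0.21, adjusted p 0.00044), and Bmp2, a growth factor, at 73.6, 71.2 and 36.9 CPM in XX against 5.98, 3.56 and 5.72 in XY (log2 difference 3.57 ± 0.34, adjusted p 0.00136). These 4 genes, with Fst and Lhx9, were the calls of the list that held, and none of them overlapped between groups.

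Among the regulators of the pre-granulosa list, Runx1 was at 84.1, 71.9 and 76.8 CPM in XX against 49.8, 41.2 and 37.2 in XY (log2 difference 0.86 ± 0.15, adjusted p 0.0106). Foxl2, the transcription factor that keeps granulosa identity, was at 2.76, 37.2 and 4.94 CPM in XX against 0, 0.108 and 0.280 in XY (log2 difference 6.80 ± 1.37, adjusted p 0.016), and Irx3, an Iroquois gene of the ovary, at 16.1, 163 and 6.70 CPM in XX against 1.12, 2.21 and 1.12 in XY (log2 difference 5.38 ± 1.24, adjusted p 0.0259). Both Foxl2 and Irx3 were above every XY library in all 3 XX libraries, yet most of their mean came from XX replicate 2. Among these and the 2 other calls of the list, Axin2 and Lgr5, the call was lost without any 1 XY library for Irx3 and Axin2 (adjusted p up to 0.11 and 0.113), without XY replicate 2 for Runx1 (adjusted p up to 0.0566), without XY replicate 1 or 2 for Foxl2 (adjusted p up to 0.0741) and without XX replicate 1 or XY replicate 1 or 2 for Lgr5 (adjusted p up to 0.0921). Over the alternatives, limma-trend on TPM included, the adjusted p ran from 1.72e-05 to 0.103 for Foxl2, from 1.42e-05 to 0.0932 for Runx1 and from 3.16e-05 to 0.11 for Irx3. Lgr5, an R-spondin receptor that marks early cortical cells of the ovary, ran the other way, at 28.3, 80.4 and 20.5 CPM in XX against 224, 230.2 and 146 in XY (log2 difference -2.21 ± 0.50, adjusted p 0.0244). With 1 library left out, 3 of these log2 differences moved to 4.83 without XX replicate 2 and 7.99 without XY replicate 3 for Foxl2, 2.93 without XX replicate 2 for Irx3 and -3.04 without XX replicate 2 for Lgr5.

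Genes that act before or beside Sry did not form a single block. Of 17 tested, 4 were higher in XX and 1 in XY (29.4%, against 17.7% of all genes). Emx2, a homeobox gene of the coelomic epithelium, was at 203, 263 and 253 CPM in XX against 75.6, 81.8 and 60.6 in XY (log2 difference 1.72 ± 0.17, adjusted p 0.00144), and Kdm3a, the histone demethylase that opens the Sry locus, at 428, 325 and 374 CPM in XX against 219, 174 and 190.1 in XY (log2 difference 0.95 ± 0.15, adjusted p 0.00761). Nr5a1, which encodes the nuclear receptor SF1, was at 241, 235 and 217 CPM in XX against 666, 668 and 399.8 in XY (log2 difference -1.32 ± 0.21, adjusted p 0.00718). All XX values of Emx2 and Kdm3a were above the XY values and all those of Nr5a1 were below. These 3 calls held, and the Kdm3a call was lost with limma-trend on TPM (adjusted p from 1.94e-07 to 0.23 over the alternatives). Gadd45g, which relays p38 signals to Sry, was also higher in XX (adjusted p 0.0461, with the replicate block 0.071), a call lost without XX replicate 1 or 3 or XY replicate 1 or 3 (adjusted p up to 0.155). Gata4 at 780.5, 543 and 729 CPM in XX against 889, 1145 and 662 in XY (adjusted p 0.275) and Wt1 at 736, 599 and 586 CPM in XX against 1073, 899 and 711 in XY (adjusted p 0.113), both needed to form the gonad, had overlapping groups.

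Of 24 tested genes of FGF signalling, 8 were higher in XY and 2 in XX (41.7%, against 17.7% of all genes). The XY count was 2 without XY replicate 1 and 3 without XY replicate 2. FGF ligands act through tyrosine kinase receptors and the ERK cascade, which switches on ETS factors and a set of feedback inhibitors. Besides the ligand Fgf9, the XY side held the ETS factor Etv1 at 6.75, 5.57 and 9.74 CPM in XX against 54.6, 45.6 and 47.8 in XY (log2 difference -2.75 ± 0.23, adjusted p 0.000943) and Etv4 at 5.63, 1.79 and 1.69 CPM in XX against 20.2, 19.9 and 11.2 in XY (log2 difference -2.49 ± 0.52, adjusted p 0.0181). Dusp6, the phosphatase that switches ERK off, was at 83.7, 29.4 and 39.8 CPM in XX against 295, 169.7 and 235 in XY (log2 difference -2.19 ± 0.41, adjusted p 0.0119). Every XY library exceeded every XX library for these 3 genes, and XX replicate 1 was the highest of the XX libraries for Dusp6. Spry4, a feedback inhibitor, was at 5.57, 2.33 and 5.82 CPM in XX against 16.4, 19.1 and 12.6 in XY (log2 difference -1.81 ± 0.38, adjusted p 0.0176). The inhibitors Dusp4, Il17rd and Fgfrl1 had log2 differences of -2.10, -0.99 and -0.96. Etv5, another ETS target, at 87.1, 13.2 and 19.1 CPM in XX against 237, 231 and 131 in XY, was not called (adjusted p 0.058) and was called with the replicate block (0.0242). Log2 differences were -2.90 without XX replicate 1 for Dusp4 and -3.29 without XX replicate 1 for Etv4.

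On the XX side of the FGF list stood a receptor and a ligand. Fgfr2, the receptor through which Fgf9 acts in the gonad, was at 202, 307 and 157 CPM in XX against 26.7, 50.9 and 63.1 in XY (log2 difference 2.24 ± 0.37, adjusted p 0.00801), and the XX libraries were the higher in all cases. Fgf18 was at 1.97, 1.502 and 1.83 CPM in XX against 0.430, 0.351 and 0.280 in XY (log2 difference 2.30 ± 0.40, adjusted p 0.00927), a low level in both groups. The calls of Fgf9, Etv1 and Fgfr2 held. The other 7 were lost without XY replicate 1 or 2 for Etv4, Spry4 and Fgfrl1 (adjusted p up to 0.0768, 0.0767 and 0.0665), without XY replicate 1 for Dusp6 (adjusted p up to 0.0528), without XY replicate 2 for Fgf18 (adjusted p up to 0.0535), without XX replicate 3 or XY replicate 1, 2 or 3 for Dusp4 (adjusted p up to 0.117) and without any 1 library but XX replicate 2 for Il17rd (adjusted p up to 0.143).

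**Figure D3:**
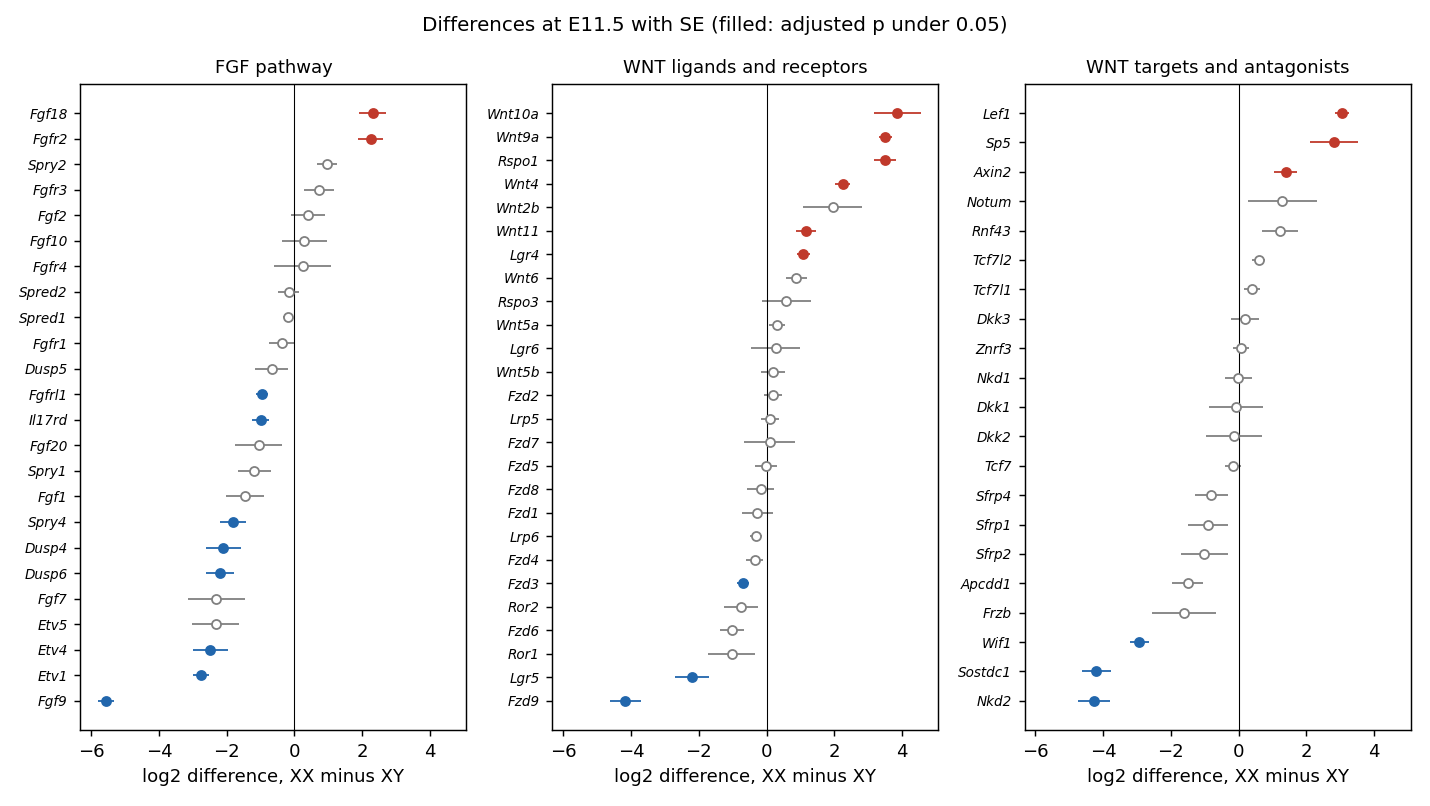
Log2 difference (XX minus XY) with its SE for every tested gene of the FGF list and the 2 WNT lists, in order of size, with filled points for genes called at an adjusted p under 0.05 and open grey points for the others. Most called FGF genes lie left of 0, and the called WNT ligands of the list, which does not hold Wnt9b, lie right of 0.

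Called WNT genes lay on both sides. In the canonical pathway a WNT ligand binds a Frizzled receptor, R-spondins and LGR receptors strengthen the signal, and beta-catenin with LEF and TCF factors switches on targets, some of which are inhibitors. Of 26 tested ligands, R-spondins and receptors, 6 were higher in XX and 3 in XY (34.6%, against 17.7% of all genes). The 4 called WNT ligands of this list were higher in XX, while Wnt9b, a ligand kept in the mesonephric list, was called higher in XY. Wnt9a was at 35.9, 46.3 and 32.8 CPM in XX against 3.35, 3.45 and 3.31 in XY (log2 difference 3.51 ± 0.20, adjusted p 0.000244), and Wnt10a at 3.21, 5.96 and 3.65 CPM in XX against 0.315, 0.0540 and 0.505 in XY (log2 difference 3.86 ± 0.69, adjusted p 0.0109). Wnt11, a ligand often acting outside beta-catenin, had a log2 difference of 1.17 (adjusted p 0.0366), lost with the replicate block (0.0559). The receptors of the list pointed both ways. Lgr4, the other R-spondin receptor, was at 522, 530.4 and 467 CPM in XX against 302, 226 and 188 in XY (log2 difference 1.08 ± 0.19, adjusted p 0.00953), opposite to Lgr5. Fzd9, a Frizzled receptor, was at 2.98, 2.18 and 4.33 CPM in XX against 29.3, 86.2 and 54.1 in XY (log2 difference -4.17 ± 0.46, adjusted p 0.00198), and Fzd3 had a log2 difference of -0.70. Of these 9 calls, those of Rspo1, Wnt4, Wnt9a and Fzd9 held, and others were lost without XY replicate 2 for Lgr4 (adjusted p up to 0.0562), without XY replicate 1 for Wnt10a (adjusted p up to 0.0548), without any 1 library but XX replicate 1 for Wnt11 (adjusted p up to 0.127) and without XX replicate 3 or XY replicate 1, 2 or 3 for Fzd3 (adjusted p up to 0.15). That of Wnt10a was 4.53 without XY replicate 3.

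Of 21 tested WNT targets and antagonists, 3 were higher in XX and 3 in XY (28.6%, against 17.7% of all genes). The XX genes were Lef1, Axin2, a feedback inhibitor widely used as a readout of the pathway, at 12.3, 24.04 and 10.4 CPM in XX against 5.56, 5.75 and 6.48 in XY (log2 difference 1.40 ± 0.34, adjusted p 0.0309), and Sp5, a target transcription factor, at 12.4, 61.6 and 10.8 CPM in XX against 5.21, 4.02 and 2.78 in XY (log2 difference 2.82 ± 0.71, adjusted p 0.0343). XX replicate 2 was highest for both Axin2 and Sp5, as it was for Fst, Foxl2 and Irx3. The 3 genes on the XY side all restrain the pathway. Nkd2, which inhibits Dishevelled, was at 3.10, 10.7 and 4.26 CPM in XX against 135, 123 and 91.9 in XY (log2 difference -4.27 ± 0.47, adjusted p 0.00197), and Wif1, which binds WNT ligands, at 2.19, 2.04 and 2.44 CPM in XX against 22.7, 15.1 and 13.04 in XY (log2 difference -2.93 ± 0.29, adjusted p 0.00144). Sostdc1, an antagonist of WNT and BMP ligands, was at 0.394, 0.194 and 0.271 CPM in XX against 3.98, 5.37 and 6.51 in XY (log2 difference -4.19 ± 0.42, adjusted p 0.00156). These 3 calls and that of Lef1 held, while the others were lost without any 1 XY library for Axin2 and Sp5 (adjusted p up to 0.113 and 0.114). The differences were -5.00 without XX replicate 2 for Nkd2 and 1.53 without XX replicate 2 for Sp5.

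The promoters of 4 genes are printed to show the motif letters searched for. Fgf9 and Lhx9 are defining markers of the XY and the XX side, and Dusp6 (higher in XY) and Sp5 (higher in XX) were chosen after the matches were seen. Each is the 250 bases before a RefSeq start site on mouse build GRCm38.p6, 5′ to 3′ on the gene's strand, and 11877 of the 15395 tested genes had such an entry. Capitals mark matches on either strand to 5 motifs: AACAAT for SOX factors, AAGGTCA for SF1, AGATAA for the GATA factors, ATCAAAG for TCF and LEF factors and CCGGAAG for ETS factors. The Fgf9 promoter is chr14:58072436-58072685, plus strand, the Dusp6 promoter chr10:99262981-99263230, plus strand, the Sp5 promoter chr2:70474673-70474922, plus strand, and the Lhx9 promoter chr1:138842445-138842694, minus strand.
Fgf9: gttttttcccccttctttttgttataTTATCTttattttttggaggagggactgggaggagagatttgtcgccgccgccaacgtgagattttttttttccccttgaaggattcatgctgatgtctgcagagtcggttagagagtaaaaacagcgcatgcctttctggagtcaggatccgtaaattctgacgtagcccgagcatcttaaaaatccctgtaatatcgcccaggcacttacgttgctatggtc
Dusp6: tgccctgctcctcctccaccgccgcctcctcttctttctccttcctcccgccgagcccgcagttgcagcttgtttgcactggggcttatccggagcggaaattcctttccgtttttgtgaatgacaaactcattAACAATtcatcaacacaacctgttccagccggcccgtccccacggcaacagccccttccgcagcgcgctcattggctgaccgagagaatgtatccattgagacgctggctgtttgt
Sp5: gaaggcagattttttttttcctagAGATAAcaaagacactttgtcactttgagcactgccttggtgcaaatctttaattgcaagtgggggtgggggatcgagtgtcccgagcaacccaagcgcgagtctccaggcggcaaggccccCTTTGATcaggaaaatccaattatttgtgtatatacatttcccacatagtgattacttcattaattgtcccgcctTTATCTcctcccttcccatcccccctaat
Lhx9: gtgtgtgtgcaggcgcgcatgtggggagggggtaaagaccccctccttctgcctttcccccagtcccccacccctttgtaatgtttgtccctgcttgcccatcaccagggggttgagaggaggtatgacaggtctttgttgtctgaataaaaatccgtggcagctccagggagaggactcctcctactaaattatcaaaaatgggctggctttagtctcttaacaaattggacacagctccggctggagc

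Fgf9 held 1 GATA match, 224 to 219 bases before the start, and Dusp6 held 1 SOX match, 116 to 111 bases before it. Sp5 held a TCF and LEF match 104 to 98 bases before the start and 2 GATA matches, at 226 to 221 and at 29 to 24 bases. In the Lhx9 window these letters were not found. The SOX letters were in 5.33% of the 15113 promoters of tested genes, in 5.17% of those of genes called higher in XX and in 7.37% of those called higher in XY. For the TCF and LEF letters the shares were 2.32%, 1.75% and 3.42%, for GATA 6.08%, 7.43% and 6.99%, for SF1 3.0%, 3.28% and 3.20%, and for ETS 12.2%, 7.06% and 9.23%. A match is a description of the letters and not a binding site, and no overlap between motifs was removed.

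Of the activin, TGF-beta and AMH list, 4 of 21 tested genes were called, all higher in XX. Inha, the inhibin subunit that blocks activin, was at 236, 172 and 207 CPM in XX against 82.96, 92.6 and 89.5 in XY (log2 difference 1.22 ± 0.15, adjusted p 0.00278). With Fst, the other antagonist of activin, it was 1 of the 2 calls that held, and its 3 XX values were all above the XY range. Gdf11 and Tgfb1, both secreted ligands, had log2 differences of 1.16 and 2.26, lost without XY replicate 1 or 2 for Gdf11 (adjusted p up to 0.0552) and without any 1 XY library for Tgfb1 (adjusted p up to 0.0866). Tgfb1 was highest in XX replicate 3, as the immune sum was. In the BMP list, 1 gene (Bmp2) was higher in XX and 4 of 24 were higher in XY (20.8%, against 17.7% of all genes). Id1, a BMP target that blocks differentiation factors, was at 51.2, 64.4 and 21.7 CPM in XX against 138, 110.2 and 166 in XY (log2 difference -1.59 ± 0.37, adjusted p 0.0275). Id3 had a log2 difference of -1.08 and Bmp6 one of -1.85. These 3 calls were lost without XX replicate 1 or XY replicate 1, 2 or 3 for Id1 (adjusted p up to 0.0965), without XX replicate 1 or 3 or XY replicate 1 or 3 for Id3 (adjusted p up to 0.0879) and without XY replicate 1 or 2 for Bmp6 (adjusted p up to 0.092), while that of Bmp2 held.

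Of 14 tested hedgehog genes 3 (21.4%) were called, and of 21 Notch genes 2 (9.52%), against 17.7% of all genes. Ptch1, the hedgehog receptor that is also its target, was at 43.1, 17.5 and 25.1 CPM in XX against 120.0, 65.7 and 107 in XY (log2 difference -1.77 ± 0.36, adjusted p 0.0173), higher in XY together with its ligand Dhh. Cdon, a co-receptor, had a log2 difference of 0.75. Of the 3 hedgehog calls, 2 were lost without XY replicate 1 or 3 for Ptch1 (adjusted p up to 0.0742) and without XX replicate 1 or XY replicate 2 or 3 for Cdon (adjusted p up to 0.0862). Hes5, a Notch target, was at 0.281, 0.0485 and 0.0676 CPM in XX against 4.50, 8.26 and 6.11 in XY (log2 difference -5.52 ± 0.62, adjusted p 0.00208) and held. Notch2, a receptor, was at 164, 170.5 and 149 CPM in XX against 97.4, 109 and 79.6 in XY (log2 difference 0.76 ± 0.15, adjusted p 0.0148) and its call was lost without XY replicate 1 (adjusted p up to 0.0641). The difference of Hes5 was -6.69 without XX replicate 1.

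Retinoic acid, made by ALDH1A enzymes and broken down by CYP26 enzymes, tells germ cells to enter meiosis. Of 19 tested genes of this pathway, 2 were higher in XX and 3 in XY (26.3%, against 17.7% of all genes). Dhrs3, which turns retinal back to retinol, was at 770.4, 624 and 692 CPM in XX against 146, 155 and 162 in XY (log2 difference 2.17 ± 0.13, adjusted p 0.000339), and Cyp26a1 was at 0.844, 0.145 and 0.338 CPM in XX against 8.62, 7.34 and 6.56 in XY (log2 difference -4.08 ± 0.57, adjusted p 0.00448). No library broke these orders, and both calls held. Aldh1a1 (log2 difference -1.41) was higher in XY and the receptor gene Rxra (0.97) higher in XX, with calls lost without any 1 library but XX replicate 2 for Aldh1a1 (adjusted p up to 0.145) and without XY replicate 1 or 2 for Rxra (adjusted p up to 0.0712). The difference of Cyp26a1 was -5.00 without XX replicate 1.

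In the prostaglandin list 4 of 16 tested genes were called (25%, against 17.7% of all genes) and all 4 held. Besides Ptgds, Ptgr1, which breaks prostaglandins down, was at 113, 111 and 116 CPM in XX against 361, 273 and 250.3 in XY (log2 difference -1.38 ± 0.16, adjusted p 0.00245). Ptges3, a co-chaperone also described as a prostaglandin E synthase, was at 1522, 1555 and 1334 CPM in XX against 816, 778 and 697 in XY (log2 difference 0.94 ± 0.13, adjusted p 0.0043). Hpgds, the prostaglandin D synthase of blood cells, was at 16.5, 6.79 and 29.4 CPM in XX against 0.200, 0.378 and 0.729 in XY (log2 difference 5.32 ± 0.70, adjusted p 0.00368), and its XX values followed the order of the erythroid and immune sums. Its difference was 4.72 without XX replicate 3 and 5.91 without XY replicate 3.

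Steroid genes were called for 4 of 20 tested (20%, against 17.7% of all genes). Hsd3b6, an enzyme of steroid synthesis, was at 85.4, 54.1 and 213 CPM in XX against 4.55, 11.3 and 8.86 in XY (log2 difference 3.83 ± 0.59, adjusted p 0.00627), highest in XX replicate 3, and this call held. Cyp17a1 (log2 difference 2.64) was higher in XX, and Mc2r, the receptor for the adrenal hormone ACTH, was higher in XY at 8.67, 9.84 and 11.97 CPM in XX against 16.8, 28.9 and 27.1 in XY (log2 difference -1.26 ± 0.25, adjusted p 0.0162). These calls were lost without XY replicate 2 for Cyp17a1 (adjusted p up to 0.0573) and without XY replicate 2 or 3 for Mc2r (adjusted p up to 0.0729). Of 17 hormone receptor genes, 3 were called (17.6%, against 17.7% of all genes). Tshr, the receptor for thyrotropin, was at 23.02, 19.2 and 24.2 CPM in XX against 1.95, 2.64 and 1.93 in XY (log2 difference 3.34 ± 0.24, adjusted p 0.000534), and Vdr, the receptor for vitamin D, at 4.05, 6.06 and 5.41 CPM in XX against 26.7, 24.7 and 16.7 in XY (log2 difference -2.13 ± 0.26, adjusted p 0.00289). Both calls held, with no overlap of groups. Esr1, the estrogen receptor alpha gene, was at 17.3, 34.8 and 15.1 CPM in XX against 7.79, 6.26 and 4.65 in XY (log2 difference 1.85 ± 0.37, adjusted p 0.0159), lost without XY replicate 2 or 3 (adjusted p up to 0.0687). Hsd3b6 had a difference of 3.08 without XX replicate 3.

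Of 30 secreted growth factors of the germ cell niche, 6 were called higher in XX and 1 higher in XY (23.3%, against 17.7% of all genes). The counts were 2 and 1 without XY replicate 1 and 1 and 1 without XY replicate 2, and the median log2 difference of the list was 0.13. The XY gene was Gdnf, which sustains spermatogonial stem cells, at 0.563, 0.0969 and 0.609 CPM in XX against 18.7, 10.3 and 8.52 in XY (log2 difference -4.92 ± 0.63, adjusted p 0.00331). Nrtn, a ligand of the same family, was higher in XX, at 66.8, 119 and 82.5 CPM in XX against 12.48, 29.1 and 19.7 in XY (log2 difference 2.13 ± 0.35, adjusted p 0.0077). These 2 related ligands thus differed in opposite directions, and both calls held. Ret, their shared signalling receptor, was at 11.3, 7.17 and 5.61 CPM in XX against 1.52, 1.62 and 2.47 in XY (log2 difference 2.10 ± 0.37, adjusted p 0.0103). Igf1 was at 132, 148 and 218 CPM in XX against 54.7, 50.2 and 87.1 in XY (log2 difference 1.37 ± 0.27, adjusted p 0.0155) and Igf2 at 167, 209 and 239 CPM in XX against 121, 108 and 113 in XY (log2 difference 0.84 ± 0.16, adjusted p 0.0124), both growth factors of the insulin family. Mdk, Efna1 and Vegfa had log2 differences of 0.69, 2.78 and 1.09. These calls were lost without XY replicate 1 or 2 for Igf1 and Ret (adjusted p up to 0.0649 and 0.0521), without XY replicate 2 for Igf2 (adjusted p up to 0.0597), without XX replicate 1 or 3 or XY replicate 1 or 2 for Mdk (adjusted p up to 0.0985), without any 1 XY library for Efna1 (adjusted p up to 0.0907) and without XX replicate 1 or XY replicate 1, 2 or 3 for Vegfa (adjusted p up to 0.112), and that of Vegfa also with the replicate block (0.0531). Efna1 had a difference of 1.70 without XX replicate 2.

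Of other transcription factor families, 6 of 32 tested genes were higher in XX and 1 in XY (21.9%, against 17.7% of all genes). Gata6 was at 157, 136 and 141 CPM in XX against 66.3, 77.1 and 90.3 in XY (log2 difference 0.89 ± 0.15, adjusted p 0.00878). Its call held as libraries were left out and was lost with limma-trend on log2(TPM + 1) of all genes (adjusted p from 1.4e-06 to 0.0632 over the alternatives), while Gata4, its partner in the gonad, had overlapping groups. Dmrta1, of the doublesex family, was at 24.9, 14.2 and 21.8 CPM in XX against 78.3, 46.1 and 46.2 in XY (log2 difference -1.49 ± 0.29, adjusted p 0.0145), and its relative Dmrt2 had a log2 difference of 1.79 at under 3 CPM, calls that were lost without XY replicate 1 for Dmrta1 (adjusted p up to 0.0519) and without XX replicate 1 or XY replicate 1, 2 or 3 for Dmrt2 (adjusted p up to 0.0979).

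2 main inhibitors of the cell cycle were higher in XX. Cdkn1a, which encodes p21, was at 107, 67.9 and 89.6 CPM in XX against 8.05, 9.18 and 10.5 in XY (log2 difference 3.25 ± 0.22, adjusted p 0.000422), and Cdkn1b, which encodes p27, at 105, 160.2 and 49.7 CPM in XX against 11.3, 8.69 and 7.23 in XY (log2 difference 3.53 ± 0.43, adjusted p 0.00282). Both block cyclin-dependent kinases, and p27 is known to mark pre-granulosa cells that stop dividing. Every XX library was several times above every XY library, and both calls held. Cdkn2d (0.75) and Ccnd3 (0.83) were also higher in XX, with the XX values of both in the order of the erythroid sum. Ccnd1, a cyclin that drives entry into the cycle, was at 188, 97.3 and 117 CPM in XX against 240.3, 267 and 238 in XY (log2 difference -0.89 ± 0.24, adjusted p 0.0431). The calls of these 3 were lost without XX replicate 3 or XY replicate 1, 2 or 3 for Cdkn2d (adjusted p up to 0.0772), without any 1 library but XX replicate 2 for Ccnd3 (adjusted p up to 0.111) and without any 1 library but XX replicate 1 for Ccnd1 (adjusted p up to 0.142). In all, 5 of 23 tested regulators of the G1 phase were called (21.7%, against 17.7% of all genes).

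Mitosis genes did not pass the test. Of 30 mitosis genes 0 were called in edgeR, against 17.7% of all genes, with 4 at an unadjusted p under 0.05 and 4 called in DESeq2. The median log2 difference was -0.59, and 28 of the 30 were below 0. The list summed to 2247, 778 and 2012 CPM in XX against 1886, 2149 and 3164 in XY. XX replicate 2 had the lowest level of the 6 libraries for 30 of the 30 genes, and the other 2 XX libraries summed to values within the XY range. Of 34 DNA replication genes, 3 were called (8.82%, against 17.7% of all genes). Mcm3, of the replicative helicase, was at 133, 113 and 131 CPM in XX against 205, 227 and 213 in XY (log2 difference -0.77 ± 0.12, adjusted p 0.00729), and Orc1, of the origin recognition complex, at 72.03, 40.95 and 73.5 CPM in XX against 17.8, 13.55 and 22.4 in XY (log2 difference 1.79 ± 0.28, adjusted p 0.007), and both held in opposite directions. The XX values of Orc1 were in the order of the erythroid sum. Rrm1 (-0.83), which makes deoxynucleotides, was higher in XY and was lost without XX replicate 3 or XY replicate 1, 2 or 3 (adjusted p up to 0.124).

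Cholesterol synthesis was higher in XY for 6 of 24 tested genes and higher in XX for 1 (29.2%, against 17.7% of all genes). Nsdhl, an enzyme of the late pathway, was at 20.03, 22.9 and 22.9 CPM in XX against 65.7, 48.6 and 55.4 in XY (log2 difference -1.37 ± 0.16, adjusted p 0.00245) and held. Mvd, Cyp51, Msmo1 and Dhcr7 had log2 differences of -0.64, -0.67, -0.54 and -0.63, calls that were lost without XX replicate 3 or XY replicate 1, 2 or 3 for Cyp51, Msmo1 and Dhcr7 (adjusted p up to 0.129, 0.181 and 0.12) and without any 1 library but XX replicate 2 for Mvd (adjusted p up to 0.143). In glycolysis and lactate handling, 5 of 30 tested genes were higher in XY and 3 in XX (26.7%, against 17.7% of all genes). Pfkp, a phosphofructokinase, was at 6.30, 9.21 and 7.44 CPM in XX against 32.2, 21.3 and 18.3 in XY (log2 difference -1.64 ± 0.27, adjusted p 0.00827), and Ppp1r3c, which promotes glycogen storage, at 0.957, 2.71 and 2.57 CPM in XX against 14.3, 21.4 and 10.7 in XY (log2 difference -2.89 ± 0.46, adjusted p 0.00696). These 2 calls held, and their groups did not overlap. Eno1 (-0.89), Ldhb (-0.99) and the lactate carrier Slc16a1 (-1.19) were also higher in XY. On the XX side, the glucose carrier Slc2a3 was at 124, 28.9 and 31.5 CPM in XX against 4.04, 5.05 and 10.1 in XY (log2 difference 3.26 ± 0.67, adjusted p 0.0167), highest in XX replicate 1. These 4 calls were lost without XY replicate 1 or 2 for Eno1, Ldhb, Slc16a1 and Slc2a3 (adjusted p up to 0.0825, 0.0882, 0.0674 and 0.0747). Slc2a3 had a difference of 2.24 without XX replicate 1.

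Sertoli cells wrap the future testis cords in a basement membrane. Of 31 basement membrane genes tested, 5 were higher in XY and 2 in XX (22.6%, against 17.7% of all genes). The median log2 difference of the list was -0.12. Lama4, a laminin chain, was at 10.5, 8.53 and 17.1 CPM in XX against 214, 193 and 148 in XY (log2 difference -3.95 ± 0.30, adjusted p 0.000688), and Col18a1, a collagen of basement membranes, at 170.3, 164 and 162 CPM in XX against 897, 1032 and 414 in XY (log2 difference -2.24 ± 0.32, adjusted p 0.0048). Sparc, a collagen-binding protein, was at 260.2, 371 and 426 CPM in XX against 838, 789 and 774 in XY (log2 difference -1.18 ± 0.19, adjusted p 0.00751). The XY values lay above the XX values throughout, and these calls and that of Egflam (-1.42) held. Hspg2, the perlecan gene (1.18), and Col4a1 (1.10) were higher in XX and were lost without XY replicate 1 or 3 for Hspg2 (adjusted p up to 0.0638) and without any 1 library but XX replicate 2 for Col4a1 (adjusted p up to 0.0913).

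Of 42 collagen genes tested, 5 were higher in XY and 3 in XX, and 9 and 1 without XX replicate 3. Col9a3, a chain of collagen IX, was at 4.73, 2.76 and 2.91 CPM in XX against 97.7, 111 and 50.9 in XY (log2 difference -4.64 ± 0.38, adjusted p 0.000834), and its partner chain Col9a2 at 13.4, 17.3 and 10.8 CPM in XX against 79.5, 92.4 and 41.8 in XY (log2 difference -2.36 ± 0.33, adjusted p 0.00436). Both are known as cartilage genes and targets of SOX factors there. Col27a1 and Col14a1 had log2 differences of -2.78 and -3.09, and Col12a1 was higher in XX (1.71), all held. Among integrins, the receptors for matrix, 3 of 23 were higher in XX and 3 in XY (26.1%, against 17.7% of all genes). Itgb8, which activates TGF-beta, was at 2.81, 2.86 and 2.57 CPM in XX against 13.03, 10.7 and 9.70 in XY (log2 difference -2.02 ± 0.24, adjusted p 0.0026) and held. The calls of the other 5 did not hold. Itga8 (-2.08), also higher in XY, was lost without XX replicate 1 or XY replicate 1, 2 or 3 (adjusted p up to 0.0684), and Itgb2 (5.09), an integrin chain of white blood cells, without XX replicate 1 or 3 or XY replicate 1 or 2 (adjusted p up to 0.115). Adamts16, a matrix protease gene, was at 27.9, 38.00 and 19.1 CPM in XX against 255, 245 and 154 in XY (log2 difference -2.94 ± 0.31, adjusted p 0.00171) and held. Adamts9 (-1.25) and the N-cadherin gene Cdh2 (-1.17) were higher in XY and were lost without XY replicate 1 or 2 for Adamts9 (adjusted p up to 0.0684) and without XY replicate 1 for Cdh2 (adjusted p up to 0.0519). The differences of the integrin genes were -2.80 without XX replicate 3 for Itga8 and 8.90 without XY replicate 3 for Itgb2.

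Guidance and imprinted genes went both ways. Of 43 semaphorin, ephrin and Slit genes, 6 were higher in XX and 3 in XY (20.9%, against 17.7% of all genes). Plxna4, a semaphorin receptor, was at 36.7, 37.1 and 30.4 CPM in XX against 15.2, 9.55 and 12.3 in XY (log2 difference 1.49 ± 0.21, adjusted p 0.00449), and Ephb6, an ephrin receptor, at 31.1, 38.8 and 36.5 CPM in XX against 109.6, 116 and 72.8 in XY (log2 difference -1.49 ± 0.21, adjusted p 0.00439), and only these 2 calls held. Of 29 imprinted genes, 5 were higher in XX and 4 in XY (31.0%, against 17.7% of all genes). Mest, expressed from the paternal copy, was at 782, 966 and 1027 CPM in XX against 2172, 2053 and 1768 in XY (log2 difference -1.11 ± 0.16, adjusted p 0.00448) and held. H19, a maternally expressed RNA next to Igf2, was at 679, 1404 and 723 CPM in XX against 367, 461 and 365 in XY (log2 difference 1.23 ± 0.29, adjusted p 0.0279). Meg3, also maternally expressed, was at 140.1, 71.5 and 165 CPM in XX against 298, 260.4 and 582 in XY (log2 difference -1.60 ± 0.40, adjusted p 0.0334). Phlda2 (1.59) and Peg12 (0.84) were higher in XX. These calls were lost without any 1 XY library for H19 and Phlda2 (adjusted p up to 0.11 and 0.0762), without any 1 library but XX replicate 3 for Meg3 (adjusted p up to 0.0869) and without XY replicate 1 or 2 for Peg12 (adjusted p up to 0.0565). H19 and Igf2, neighbours expressed from opposite parental copies, were both higher in XX.

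The counts for housekeeping families moved when XX replicate 2 was left out, and so did the count of all genes. The latter went from 2718 of 15395 (17.7%) to 3658 of 16200, with 1772 higher in XX and 1886 in XY. Of 78 ribosomal protein genes 2 were called on the XX side and 2 on the XY side (5.13%), and without that library 2 and 44. The family summed to 15221, 25746 and 15594 CPM in XX against 22459.5, 19633 and 19790.2 in XY, highest in XX replicate 2. Of 75 mitochondrial ribosomal protein genes 4 and 1 were called on these sides (6.67%), and 5 and 17 without XX replicate 2. Of 38 proteasome genes 2 and 3 were called (13.2%), and 2 and 9 without it. Of 37 complex I genes 0 and 1 were called (2.70%), and 3 and 4 without it. Of 31 Hox genes, which pattern the body axis, 1 was called (3.23%), on the XY side, and 5 without XX replicate 3. On the X chromosome, 40 of 551 tested genes (7.26%) were higher in XX and 66 (12%) in XY, against 9.11% and 8.54% of all genes. On single autosomes the shares ran from 7.33% to 11.2% higher in XX and from 5.05% to 10.9% higher in XY. Of 6 genes known to escape X inactivation, 1 was called (16.7%, against 17.7% of all genes). It was the demethylase gene Kdm6a at 127, 87.00 and 113 CPM in XX against 69.2, 62.8 and 70.5 in XY (log2 difference 0.69 ± 0.16, adjusted p 0.0285), lost without any 1 library but XX replicate 2 (adjusted p up to 0.101).

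**Figure D4:**
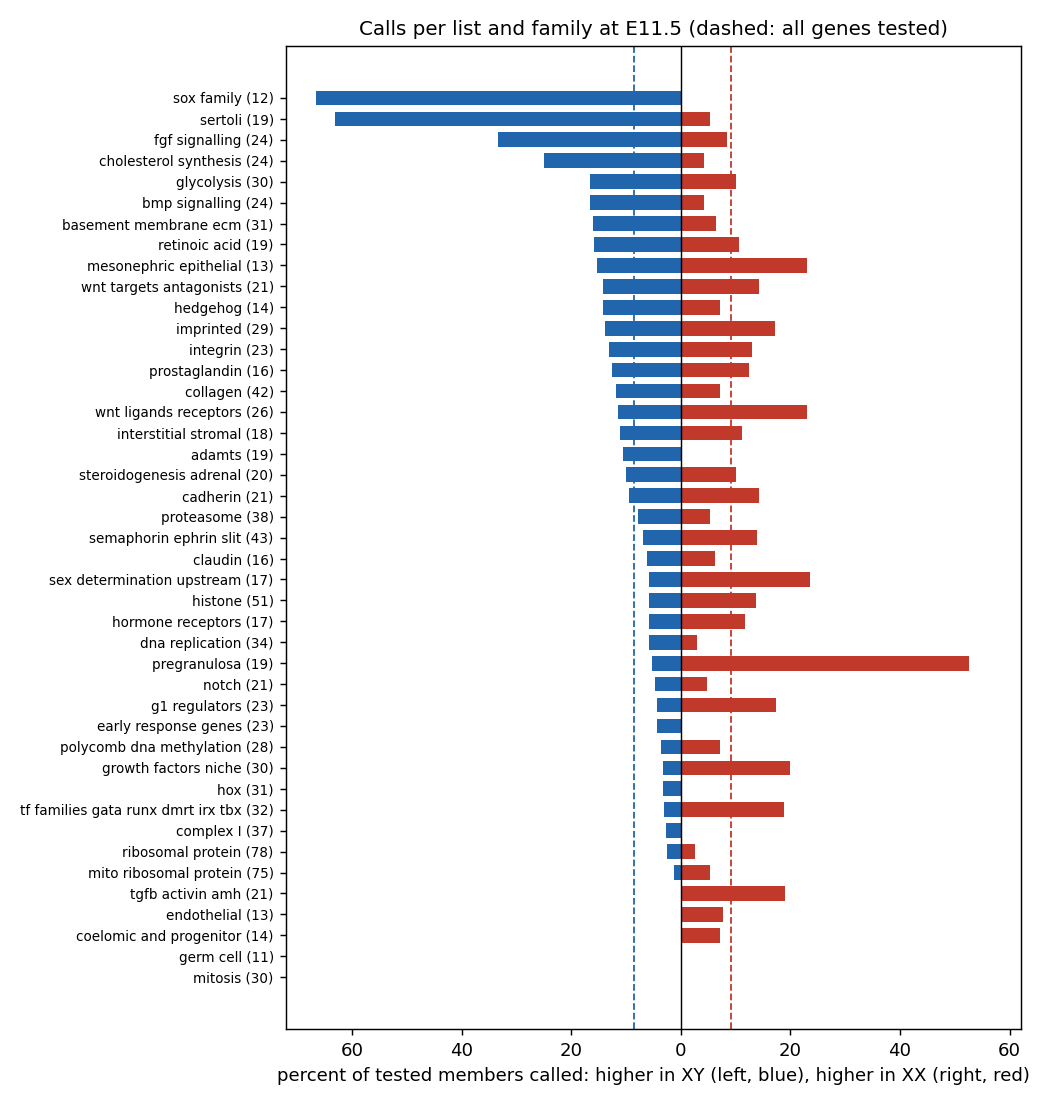
Percent of the tested members of each list or family (number in brackets) called higher in XY (blue, left) or higher in XX (red, right), with dashed lines at the shares of all genes tested, 8.54% and 9.11%. The SOX, Sertoli and FGF lists stand out on the left and the pre-granulosa list on the right, and the erythroid, macrophage and immune lists and those with under 10 tested members are left out. The SOX and Sertoli lists both hold Y-linked Sry and Sox9, the gene of the XY gate.

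By size alone, the largest differences on the XX side were mostly genes of blood. Among called genes with at least 10 CPM and no overlap, outside the erythroid, immune and Y-linked lists, the 12 largest were Rps12l1, Kel, Ms4a6b, Rhd, Ms4a6c, Trim10, Fcgr3, Stab1, Hbb-b1, Myo1f, Adra2b and Tal1. Kel and Rhd encode blood group antigens, Tal1 a transcription factor of blood formation and Fcgr3 an antibody receptor of white cells. Kel was at 21.4, 2.91 and 51.00 CPM in XX against 0, 0 and 0.0561 in XY and Tal1 at 19.5, 3.73 and 45.3 CPM in XX against 0.0286, 0.270 and 0 in XY, in the order of the erythroid sum. Rps12l1, a copy of a ribosomal protein gene whose reads can be shared with its parent, was at 24.3, 62.9 and 6.16 CPM in XX and had no count in XY, so its order was different. The call of Rps12l1 was lost with no filter beyond 1 count, and those of Rhd, Trim10, Adra2b and Tal1 with limma-trend on log2(TPM + 1) of all genes.

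On the XY side the 12 largest were Rnase1, Iqch, Abcb1a, Fgf9, Dusp15, Zan, Mmd2, Fam83f, Aqp1, Ppargc1a, Kif19a and Rasgrf2. Rnase1, a secreted ribonuclease, was at 0.113, 1.65 and 0.203 CPM in XX against 145, 153 and 125.1 in XY (log2 difference -7.63 ± 0.69, adjusted p 0.00118). Ppargc1a, a coactivator that promotes mitochondrial genes, was at 1.69, 1.21 and 1.76 CPM in XX against 61.02, 51.5 and 45.5 in XY (log2 difference -5.09 ± 0.23, adjusted p 0.000135), and Mmd2 at 4.22, 4.65 and 1.76 CPM in XX against 150.0, 139.5 and 93.1 in XY (log2 difference -5.15 ± 0.39, adjusted p 0.000682). Abcb1a, a drug efflux pump, was at 0.450, 0.436 and 0.271 CPM in XX against 34.6, 31.7 and 27.03 in XY (log2 difference -6.29 ± 0.27, adjusted p 0.000113). Each of these was under 5 CPM in every XX library. The log2 difference of Rnase1 was -9.80 without XX replicate 2.

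A further group was chosen after its values were seen: genes higher in XX whose highest XX library was no more than 2 times the lowest, a narrower spread than that of the erythroid sum. The genes described are among the 12 largest such differences. Msx1, a homeobox gene and BMP target, was at 514, 682 and 527 CPM in XX against 22.7, 28.1 and 26.2 in XY (log2 difference 4.48 ± 0.18, adjusted p 0.000113), and Lzts1, a regulator of the cell cycle, at 723, 1022 and 755 CPM in XX against 76.2, 73.6 and 57.2 in XY (log2 difference 3.59 ± 0.20, adjusted p 0.000261). Chrm4, a muscarinic receptor, was at 94.8, 81.5 and 81.2 CPM in XX against 3.09, 2.78 and 1.88 in XY (log2 difference 5.05 ± 0.23, adjusted p 0.000137). For these 3 genes every XX library was well above every XY library, and XX replicate 3 was not the highest. Lancl3 was at 94.04, 62.2 and 95.98 CPM in XX against 4.47, 3.89 and 5.05 in XY (log2 difference 4.23 ± 0.23, adjusted p 0.000244), with XX values in the order of the erythroid sum.

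The E11.5 differences were set beside those of E12.5, whose XX and XY samples are other libraries. The E12.5 calls came from a fit of 12 libraries, whose filter and estimates of spread also used the E11.5 libraries. The calls of both stages are therefore not independent. Of 2709 genes called at E11.5 and present in that fit, 1990 (73.5%) were also called at E12.5, where they were 23.8% of the 8364 such calls among genes of both fits. In all, 54.7% of the genes of that fit were called at E12.5. Of the 1990, 1806 (90.8%) had the same direction and 184 the opposite one. The change of the difference between stages was tested itself: of 15801 genes, 4686 were called (29.7%), 2454 with a difference that moved towards XX and 2232 towards XY. With limma-trend on log2(TPM + 1), where the median change was 0.25, the calls split into 3488 and 1389. Among the 2709 genes, the difference grew in 517, shrank or turned in 653, and had no called change in 1539. These genes were chosen by their E11.5 call, and the change is computed from the same E11.5 libraries. A difference overstated at E11.5 would therefore seem to shrink, so this split cannot be read as a balance of growth and loss.

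Several of the genes higher in XX at E11.5 had a larger difference a day later. Lef1 went from 3.04 to 7.40 at E12.5 (change 4.36 ± 0.26, adjusted p 1.18e-06), Lhx9 from 1.60 to 6.60 (change 5.01 ± 0.29, adjusted p 1.06e-06), and Fgfr2 from 2.24 to 5.42 (change 3.19 ± 0.45, adjusted p 0.00033). Wnt4, Rspo1, Bmp2, Axin2 and Emx2 grew by 1.65, 1.97, 1.96, 2.99 and 2.17, and Fst by 5.78, all called. On the Sertoli side, Dhh went from -4.61 to -9.85 (change -5.24 ± 0.45, adjusted p 1.79e-05) and Amh from -2.88 to -12.18 (change -9.31 ± 0.95, adjusted p 4.65e-05). Cst9, Sox8, Ptgds and Aard had changes of -4.51, -2.45, -4.26 and -1.89, again called and towards XY. The change of Sox6 (-2.50 at E12.5) was not called (adjusted p 0.644). The Fgf9 difference was -5.57 at E11.5 and -5.97 at E12.5.

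Other genes turned round. Inha, higher in XX at E11.5, was higher in XY at E12.5 (-1.75; change -2.96 ± 0.17, adjusted p 8.41e-07), and so was Fgf18 (-3.15; change -5.45 ± 0.51, adjusted p 2.23e-05). Ptges3 and Notch2 followed them, at -0.41 and -0.43 (adjusted p of the change 0.000212 and 0.000642), as did Hk1 at -1.16 (0.000159), although its E11.5 call (adjusted p 0.0387) was lost with the replicate block (0.0662). In the other direction, Id1 went from -1.59 to 1.25 (change 2.85 ± 0.61, adjusted p 0.00469). Mc2r had no count in XY at E12.5 and was at 0.871 ± 0.502 CPM in XX (mean ± SD, n = 3), so no fold is given for that stage. The stromal receptor gene Pdgfra, at 98.9, 67.5 and 160.2 CPM in XX against 259, 219 and 262 in XY at E11.5, was higher in XX at E12.5 (2.85, adjusted p of the change 4.53e-05). So was the ephrin receptor gene Epha7 (1.26, 0.000253), at 127, 127 and 168 CPM in XX against 215, 231 and 307 in XY at E11.5. The E11.5 calls of these last 2 were lost without XX replicate 1 or XY replicate 1, 2 or 3 for Pdgfra and Epha7 (adjusted p up to 0.114 and 0.073).

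Some differences of E11.5 shrank, with the limit given above for genes chosen by their E11.5 call. Rnase1 went from -7.63 to -3.41 (change 4.22 ± 0.68, adjusted p 0.000886) and Abcb1a from -6.29 to -1.73 (change 4.57 ± 0.58, adjusted p 0.000158). Etv1 fell back by 0.96 towards 0 and Sox5 by 1.02, to differences of -1.80 and -0.29. On the XX side Lancl3 (1.59 at E12.5), Hpgds (1.59) and Pecam1 (0.19) had smaller differences at E12.5, with called changes of -2.64, -3.72 and -2.17. The E11.5 difference of Rnase1 was -9.80 without XX replicate 2.

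Mest, an imprinted gene higher in XY at E11.5 (-1.11), was higher in XX at E12.5 (3.75; change 4.87 ± 0.21, adjusted p 1.49e-07), and H19 went from 1.23 to 5.94 (change 4.71 ± 0.34, adjusted p 4.15e-06). Igf1 and Igf2 grew by 4.72 and 2.42, and the collagen genes Col9a3, Col14a1 and Col18a1 moved by -4.67, -5.31 and -2.68, further towards XY. Among the XX genes Dhrs3 and Msx1 grew by 1.91 and 3.11.

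**Figure D5:**
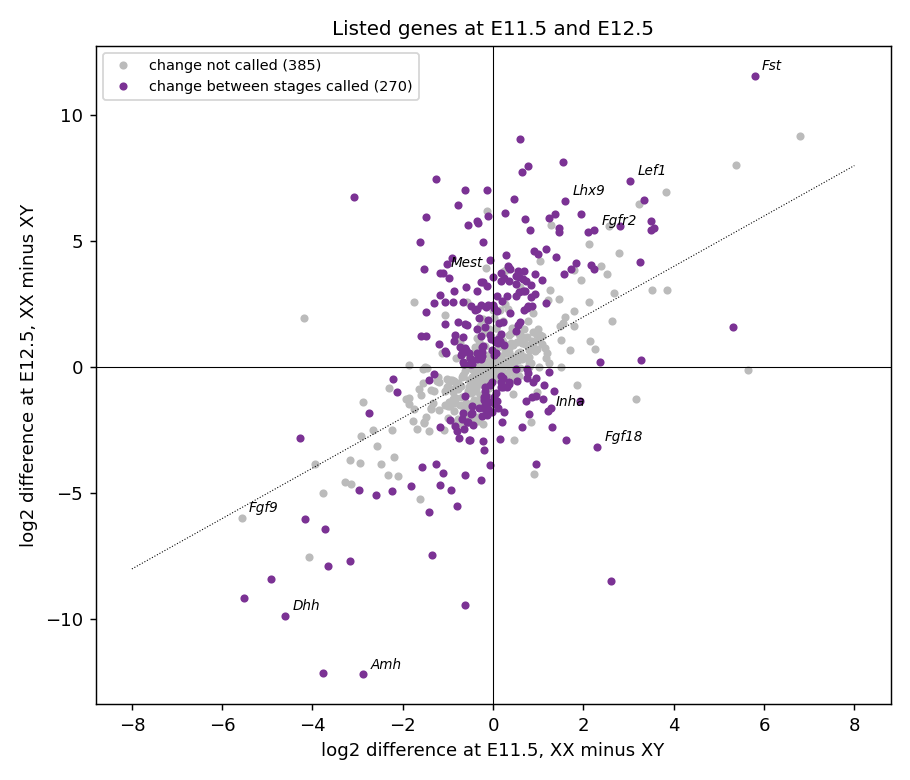
Log2 difference (XX minus XY) at E11.5 against that at E12.5 for 655 listed genes measured at both stages, without the erythroid, immune, Y-linked and Xist lists, in purple where the change between stages was called and in grey where not. Points near the dotted line have equal differences, and Inha, Fgf18 and Mest lie in the quadrants of opposite sign.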

How the data were processed

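Polyadenylated RNA of sorted fetal gonad cells was sequenced after amplification of cDNA with a low-input kit, and the labels name no molecular identifiers. The authors deposited expected counts and TPM (abundance scaled for gene length and depth) for 24 libraries. The build is mm10, per the submitters' processing notes, and the aligner and counter are not given in the sources used here. Of the deposited expected counts in the 6 libraries compared, 19.1% were not whole, and all were rounded.

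The 6 E11.5 libraries (3 a group) were fitted with edgeR 4.0.16 in R 4.3.3: filterByExpr, TMM scaling, robust quasi-likelihood test and Benjamini-Hochberg adjustment over all 15395 genes tested, with calls at an adjusted p under 0.05. CPM values are counts scaled to TMM-adjusted totals, and compare 1 gene between libraries, not genes with each other. The SE is the size of the log2 difference divided by the root of F. The common biological coefficient of variation was 29.1% with 4 residual degrees of freedom. The change between stages came from the interaction term of a fit of the 12 libraries of E11.5 and E12.5 (15801 genes). The fit was tested on simulated data.

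The compared libraries, 47 lists of genes and named genes were chosen with earlier results of these data known. Any listed gene could be named, and some are not reported here. Of the other genes, the 12 largest called differences in each direction with at least 10 CPM and no overlap were named, leaving out Y-linked, erythroid and immune genes and Xist, as were the 6 genes with the smallest p for the change. Same-numbered libraries correlated in their deviations from the group means at 0.114, 0.101 and 0.323. Pairs with unlike numbers ran from -0.292 to 0.151, and the highest, XX replicate 2 with XY replicate 1, lay above 0.114 and 0.101. Neither these values nor the labels establish a pairing by number. The main fit holds no block, and the blocked p is given where it changes a call. Alternatives were other size factors, 2 other count filters, the replicate block, DESeq2 1.42.0, limma 3.58.1 on TPM, all 24 libraries, thinning to equal depth, removal of blood genes, a minimum log2 difference of 1, summed TPM for the marker lists and each library left out in turn. A gene with no count in a group was set to a floor of 3 counts per library, 0.145 to 0.203 CPM in XX and 0.0810 to 0.0859 CPM in XY, which covers counting error only. E13.5 and E15.5 enter only the fit of 24 libraries. Fst and Sox9 promoters were not used here.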

Additional observations from a re-analysis of the deposited data

Results flagged for a closer look

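The XX minus XY difference changed between E11.5 and E12.5 by the interaction test for 4686 genes, and 184 genes were called in opposite directions at the 2 stages with the change itself called. The 6 genes with the smallest p for the change were Calb1, Sulf1, Mest, Tinagl1, Vnn1 and Myl9.

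Calb1, a calcium-binding protein gene, was at 175, 143 and 157 CPM in XX against 49.4, 42.8 and 43.7 in XY at E11.5. Its E12.5 means were 86.9 ± 16.1 for XX and 0.0450 ± 0.00194 for XY (CPM ± SD, n = 3), a fitted change of 8.96 that rests on an XY level under the floor of 3 counts per library. Sulf1, which trims heparan sulfate, was at 341, 446 and 364 CPM in XX against 375, 313 and 426 in XY at E11.5 and at 661 ± 65.2 and 13.4 ± 1.45 CPM in XX and XY at E12.5, a change of 5.58. For both genes the change was towards XX. Mest changed by 4.87. Myl9, a myosin light chain gene, was at 302, 469 and 388 CPM in XX against 461, 397 and 371 in XY at E11.5 and at 531 ± 9.03 and 22.2 ± 2.55 CPM at E12.5, a change of 4.67.

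The last 2 changed towards XY. Tinagl1, a matrix protein gene, was at 21.2, 23.2 and 23.6 CPM in XX against 41.3, 51.7 and 36.5 in XY at E11.5, with E12.5 means of 15.04 ± 1.20 for XX and 477 ± 13.96 for XY, a change of -4.05. Vnn1, a pantetheinase gene, was at 16.3, 13.7 and 13.1 CPM in XX against 14.6, 15.6 and 14.05 in XY at E11.5 and at 15.9 ± 2.18 and 248 ± 14.01 CPM at E12.5, a change of -3.92.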

How the results depend on the processing

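The count of genes called at E11.5 was 2718. It was 6803 with all 24 libraries and 1800 with a log2 difference of at least 1, and it ran from 1010 to 3658 as each library was left out. Of 1116 listed genes tested 225 were called, 490 with all 24 libraries and from 110 to 339 as each library was left out, with 110, 118 and 147 without XY replicates 1, 2 and 3 and 339 without XX replicate 2. The cause was not tested, and the fits without a library hold fewer samples. With limma-trend on log2(TPM + 0.1) the E11.5 calls split into 989 higher in XX and 1457 in XY at a median of -0.10, and on all genes with TPM above 0 into 810 and 1216. For the change between stages, limma-trend gave 3633 towards XX and 1295 towards XY with a pseudocount of 0.1 (median 0.289) and 3276 and 1433 over all genes. The change count ran from 3629 to 6420 as each library was left out. With the replicate block 2746 genes were called at E11.5 and 4712 for the change, and the block altered no call of a named gene other than those stated. Summed marker lists moved by less than the spread between libraries under every alternative run, but that spread does not show a stable direction. As each library was left out, the log2 ratio of summed CPM (XX over XY) ran from -1.045 to 0.438 for the interstitial list. For the germ cell list it ran from -0.351 to 0.0806, so both changed sign, while the other marker lists stayed above 0. The XX libraries hold fewer counts than the XY libraries, and with all thinned to the smallest total 2445 genes were called.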
